A study of Apostichopus japonicus with 3 samples.

Results

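Solute carriers are membrane proteins that move small molecules and ions across membranes, and each is assigned to a numbered family by sequence. In the sea cucumber Apostichopus japonicus, 200 of the 21290 assembled transcripts (isotigs) carried a KEGG orthology name, taken from the first entry of each isotig's KEGG annotation, that contains the words solute carrier family. Of these, 24 belong to family 25, the carriers of the mitochondrial inner membrane, and 176 belong to 35 other families, most of which work at the plasma membrane or in vesicles. The 200 isotigs fall under 89 orthologies, of which 50 have 1 isotig and 20 have 3 or more. An isotig can be a whole transcript, a fragment, a splice form, an allele or a close copy, so an isotig is not a gene. The best KEGG hit had an E-value above 1e-10 for 36 of the 200, and those names are uncertain.

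The series title asks about strong light and darkness in the body wall of this animal. Poly(A) RNA was sequenced from 3 libraries, 1 in each group. The control animals stayed in natural light of about 100 lux, the dark animals spent 2 h in a shaded, fully dark tank, and the light animals spent 2 h at about 2000 lux. How many animals a library holds, and their age, is not given in the labels used here. With 1 library a group there is no replicate check, no test between conditions is possible and every ratio compares 2 libraries. In bulk tissue, fewer cells of a type and less RNA per cell cannot be told apart.

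Carriers that run on ion gradients draw them from the sodium pump: sodium-coupled cotransporters bring in amino acids, vitamins, phosphate or chloride together with sodium, and exchangers trade sodium for protons or calcium. Proton-coupled and facilitative carriers move peptides, monocarboxylates, nucleosides and metals. Echinoderms take up dissolved organic nutrients through the outer epithelium of the body wall, and carriers of the mitochondrial inner membrane pass nucleotides, phosphate and acids between the cytosol and the matrix.

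The control, dark and light libraries held 1570290, 1698268 and 1644816 reads, and 190, 176 and 188 of the carriers had a read in them. The tissue and protocol labels name body wall and the source label names intestine. Reads by name pattern are given here for control, dark and light in turn. In the body wall list, collagens held 34375, 34423 and 40048, and tenascins 6424, 7870 and 6390. Of its muscle names, titins held 3009, 3080 and 3022, about level in dark. Myosin heavy chain held 3524, 2368 and 4126, troponin 55, 23 and 46, and tropomyosin 16, 5 and 2. These 3 were lower in dark than in control, as many carriers were, so the muscle names did not all go the same way. In the digestive list, trypsin names held 5459, 5197 and 5766, phospholipase A2 held 907, 846 and 977, and names with pancreatic held 589, 664 and 334. Names with intestinal held 203, 140 and 238, and names with amylase held 119, 81 and 92. The amylase reads include those of maltase-glucoamylase, which held 97, 60 and 78. Carboxypeptidase A and meprin held at most 3 reads in a library. Chymotrypsin, carboxypeptidase B, enteropeptidase and sucrase-isomaltase named 0 isotigs. Both lists thus had reads in every library, and the label conflict is not settled by them. Among 5 carriers of the mammalian intestinal brush border, no isotig carried the name of the glucose carriers SLC5A1 and SLC2A5 or of the amino acid carrier SLC6A19, while SLC15A1 and SLC10A2 had 1 isotig each. The median log2 ratio in dark against control was -0.44 over 58 tested isotigs of the digestive list and -0.47 over 105 of the body wall list. The part of tissue or cell composition in the results, muscle included, was not tested. Of the whole dark library, the 20 most abundant isotigs took 23.5% of reads, against 18.9% in control and 18.6% in light, and none of them is a carrier. RPKM values are shares of a library. Size factors scale each library by its median isotig ratio, so they centre the median of all isotigs by construction. With them the median log2 ratio of all isotigs in dark against control went from -0.31 to 0.00.

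Carrier transcripts took a smaller share of the dark library than of the others. They held 10834 of the control reads (0.690%, 95% Wilson interval 0.677 to 0.703), 8371 of the dark reads (0.493%, 0.482 to 0.504) and 11915 of the light reads (0.724%, 0.712 to 0.737). A single isotig, the adenine nucleotide carrier of mitochondria, supplied 2834, 3258 and 2713 of these reads. Without it the shares were 0.509% in control, 0.301% in dark and 0.559% in light. These intervals cover counting error only, since each group has 1 library. The reads carry no molecular identifiers, so copies of one fragment could not be told from separate fragments.

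Of the 200 carriers, 165 passed the filter of a mean of 1 RPKM over the 3 libraries (RPKM is reads scaled by isotig length and library total). The other 35 had at most 7 reads in any library. On the log2(RPKM + 0.5) scale, 68 of the 165 were at least 2-fold lower in dark than in control, where 24.03% of all 18225 tested isotigs were, and 6 were at least 2-fold higher, where 7.09% of all were. The carriers' share at least 2-fold lower was 41.2%. Their median log2 ratio was -0.81, against -0.31 for all isotigs and -0.56 for the 6484 tested isotigs that have a KEGG name. Named isotigs were at least 2-fold lower in 29.6% and higher in 4.23% of cases. The carriers past 2-fold in either direction numbered 74, against 31.1% of all isotigs. After size factors, 48 carriers were lower and 10 higher by that limit, against 16.6% and 11.8% of all isotigs, and the carriers' median was -0.53. All 48 were among the 68, which had to be so, because size factors raise every dark to control ratio. Where counting error was added to the rule, so that the 95% interval of the read ratio had to exclude 1, 47 carriers were lower and 1 was higher, against 14.1% and 2.57% of all isotigs.

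The dark difference was also present among the better counted carriers. Of 84 carriers with 20 mean reads or more, 34 stood 2-fold or more below control in dark and 0 above it, where the shares of all 8626 isotigs of that depth were 19.1% and 2.82%. Among the 20 carriers with at least 100 reads, 9 were lower and 0 higher, where the shares of all isotigs of that depth were 14.7% and 2.06%. The median of those 20 was -0.94. The shares of all isotigs given here, and the 24.03% set beside each substrate group below, include isotigs without a KEGG name. Over all depths, 29.6% of named isotigs were at least 2-fold lower in dark. Mitochondrial and other carriers had like medians, -0.86 over 22 isotigs and -0.81 over 143. When reads were summed over each orthology, 37 of 82 carrier orthologies were lower and 1 was higher, where 25.9% and 1.91% of all 3300 KEGG orthologies summed in the same way were.

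**Figure D1:**
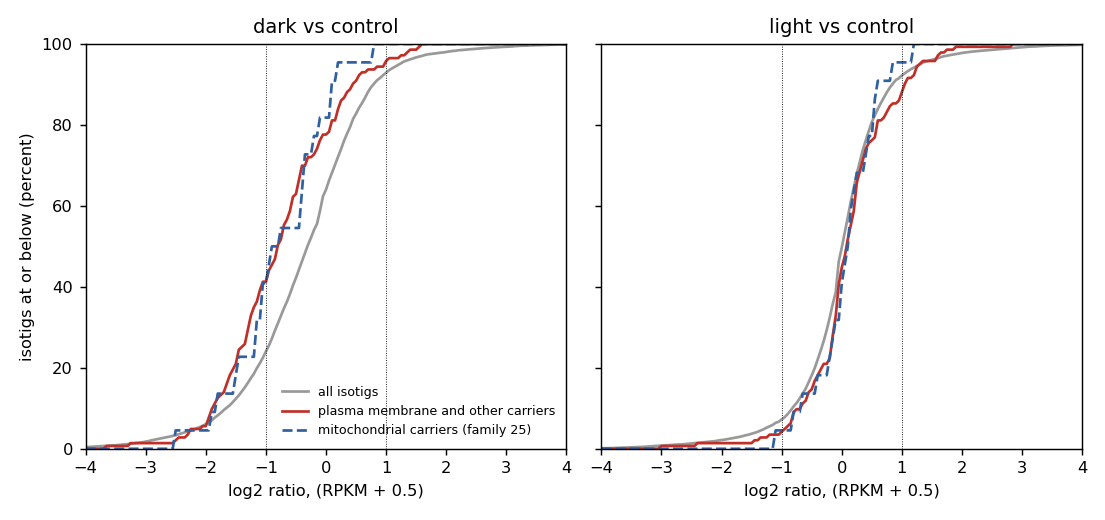
Cumulative share of isotigs (percent, vertical axis) at or below each log2 ratio of RPKM + 0.5 (horizontal axis), for dark against control (left) and light against control (right). Dotted lines mark 2-fold. In dark both carrier curves lie left of the grey curve of all isotigs, with medians of -0.86 for family 25 and -0.81 for the others against -0.31, and in light the 3 curves lie close together.

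Strong light gave smaller differences. In light against control, 18 of the 165 carriers were at least 2-fold higher and 7 lower, where 7.77% and 7.22% of all isotigs were. With the counting interval added to the rule, 3 carriers were higher and 2 lower, against 2.25% and 1.95% of all isotigs. Their median log2 ratio was 0.08, and that of all isotigs 0.00. At 20 mean reads or more, 2 of 84 carriers stood 2-fold or more above control and 0 below it, where 1.54% and 1.79% of all isotigs of that depth were. In either direction 25 of the 165 were past 2-fold, against 14.99% of all isotigs. The comparisons of dark and of light with control share the control library. In light against dark, which shares a library with each of them, 74 carriers were higher and 5 lower, where 26.2% and 8.09% of all isotigs were, or 79 against 34.3% in either direction.

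The most abundant carrier by far was isotig08805, named as the adenine nucleotide translocator, which exchanges ADP and ATP across the mitochondrial inner membrane. Its RPKM was 941 in control, 1000.2 in dark and 860 in light. The ratio of dark to control was 1.06 (95% counting interval 1.01 to 1.12) and that of light to control was 0.914 (0.867 to 0.964). With size factors the dark ratio was 1.33 (1.26 to 1.39), so its nearness to 1 rests on the deposited scaling. Amino acid carriers led the other families per length. The L-type amino acid carrier SLC43A2 had isotig17668 at 150 RPKM in control, 108 in dark and 175 in light, and isotig14983 at 104, 62.9 and 106. Among 10 isotigs of the orthology of glycine, proline and broad amino acid carriers (SLC6A5, SLC6A7, SLC6A9 and SLC6A14), 4 were among the 10 most abundant carriers outside family 25. In each of those 10 the dark library had the lowest RPKM.

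**Figure D2:**
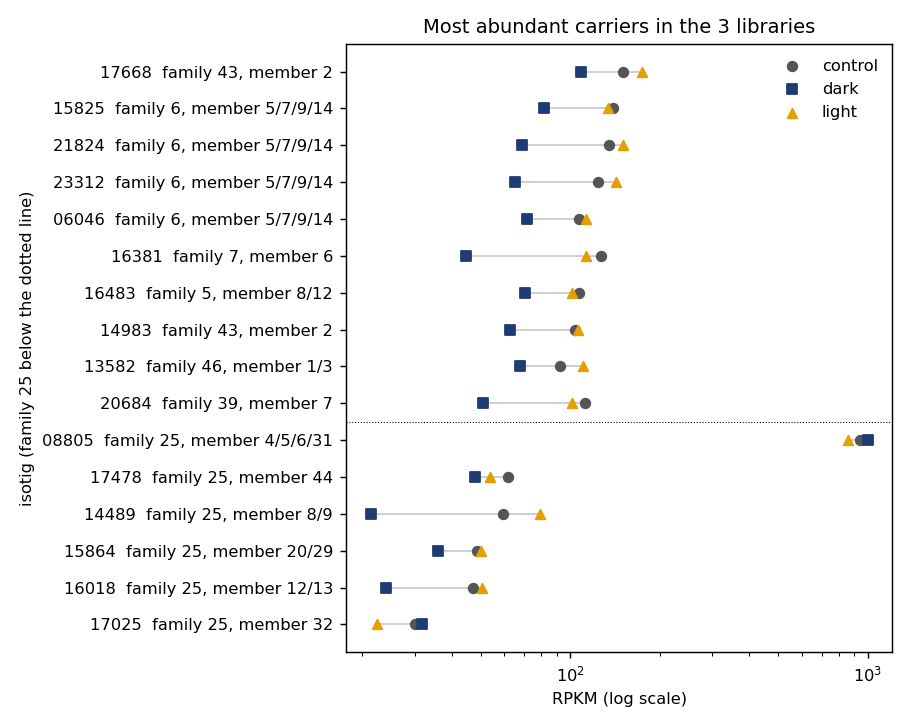
RPKM (horizontal log axis) of the 10 most abundant carriers outside family 25 and the 6 most abundant of family 25, labelled by isotig number, family and member, in control (circles), dark (squares) and light (triangles), 1 library each. Among the upper 10 the dark value is the lowest in every row, while isotig08805 stands between 860 and 1000.2 RPKM.

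Carriers of bicarbonate, sulfate and chloride stood lowest in dark together with the exchangers of sodium, calcium and protons. The anion group had 12 tested isotigs and a median log2 ratio of -1.47. Of these, 9 were at least 2-fold lower in dark and 0 higher, against 24.03% and 7.09% of all isotigs. Of 7 exchangers, 5 were lower and 1 higher, with a median of -1.76. The higher one, isotig18377, had 1 read in control and 3 in dark. After size factors the same numbers, 9 and 5, were lower, where 16.6% of all isotigs were. In light the medians were 0.10 and 0.13, and 0 anion carriers and 2 exchangers, 1 in each direction, were at least 2-fold from control. Of all isotigs, 14.99% were that far from control in light.

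Family 4 had 5 isotigs, all at least 2-fold lower in dark. The sodium bicarbonate cotransporter SLC4A4, which brings base into or out of epithelial cells with sodium, had isotig20761 at 52 reads in control, 14 in dark and 52 in light. That is 4.02-fold lower in dark (2.19 to 7.85) and level in light, where the ratio to control was 0.955 (0.637 to 1.43). The other 4 are named SLC4A8, a sodium bicarbonate cotransporter, and SLC4A11, a sodium borate transporter. They had 4 to 11 reads in control and 1 to 4 in dark. Among cation chloride cotransporters of family 12, the sodium, potassium and chloride cotransporter SLC12A2 (isotig13446) had 92, 26 and 143 reads in control, dark and light. It loads chloride into cells and serves fluid secretion and cell volume in mammals. It was 3.83-fold lower in dark (2.45 to 6.16) and 1.48-fold higher in light (1.13 to 1.95). The sodium chloride cotransporter SLC12A3 (isotig06085) had 48, 19 and 57 reads and was 2.73-fold lower in dark (1.58 to 4.92). Isotig24330, named SLC12A9, had 25, 5 and 18 reads, the lowest log2 ratio among carriers with at least 10 mean reads, at -2.33, and was 5.41-fold lower (2.03 to 18.1). So in all 3 tested family 12 isotigs the dark library was the lowest. Anion exchangers of family 26 were less far apart, with 88, 59 and 113 reads over 4 isotigs, a 1.61-fold lower sum in dark (1.15 to 2.28) that was 1.29-fold with size factors, where the interval spans 1 (0.920 to 1.83).

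The sodium/hydrogen exchanger SLC9A3, which takes up sodium and extrudes acid at the apical face of mammalian epithelia, had 2 isotigs. Isotig17892 had 41 reads in control, 12 in dark and 41 in light, and isotig17202 had 27, 8 and 26. They were 3.70-fold (1.91 to 7.72) and 3.65-fold (1.61 to 9.30) lower in dark. Of the exchangers that export calcium in return for sodium, 3 were well below control in dark. The sodium/calcium exchanger of family 8 (isotig08526) had 12, 2 and 16 reads. The potassium-dependent exchanger SLC24A4 had isotig13901 at 69, 22 and 79 reads, 3.39-fold lower (2.07 to 5.76), and isotig26954 at 26, 7 and 13. Isotig26954 was also lower in light, with a log2 ratio of -1.05. SLC24A5, known from pigment granules in fish and mammals, went the other way with 16, 25 and 20 reads in isotig14075, a ratio in dark of 1.44, and its interval spans 1.

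The primary pumps that make these gradients were measured beside the carriers. Over 4 sodium pump isotigs the median log2 ratio in dark was -0.95, and 2 were at least 2-fold lower. Their largest alpha subunit isotigs had 362, 179 and 455 reads and 454, 285 and 506 reads in control, dark and light. Calcium pumps (4 isotigs) had a median of -1.06 with 2 lower. ABC transporters, which use ATP to move substrates, had a median of -1.06 with 19 of 37 lower and 1 higher. By the same limit 24.03% of all isotigs were lower and 7.09% higher. Low dark values were thus also found outside the solute carriers.

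**Figure D3:**
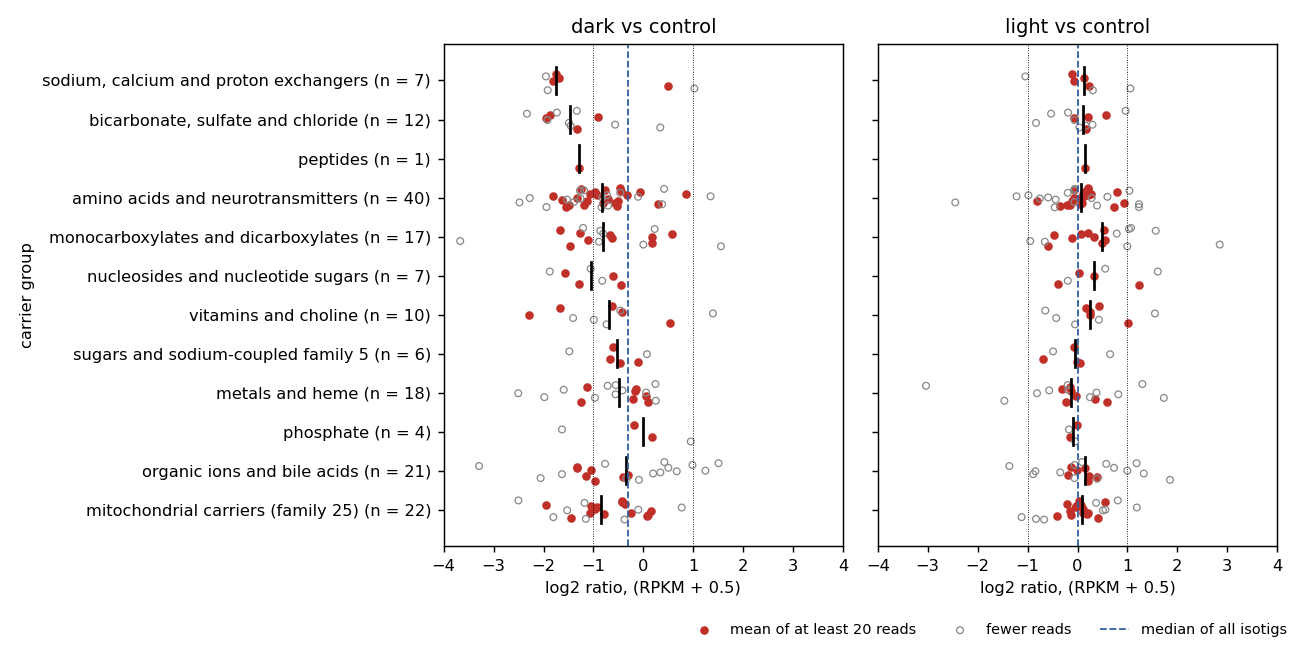
Log2 ratio of RPKM + 0.5 (horizontal axis) of each tested carrier by substrate group (vertical axis, number of isotigs in brackets), dark against control on the left and light against control on the right. Filled points have a mean of at least 20 reads, open points fewer, black bars are group medians, the dashed line is the median of all isotigs and dotted lines mark 2-fold. The medians in dark run from -1.76 for the exchangers to -0.01 for phosphate.

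Carriers of amino acids and neurotransmitters were the largest group, with 40 tested isotigs at a median of -0.83 in dark. Of these, 17 were at least 2-fold lower in dark and 1 higher, against 24.03% and 7.09% of all isotigs. In light 3 were higher and 2 lower, against 7.77% and 7.22% of all isotigs, at a median of 0.07. The vesicular carrier of family 32 (SLC32) fills synaptic vesicles with GABA and glycine in vertebrates, and 21 isotigs carry its name, 7 of them with an E-value above 1e-10. All 13 that were tested had a lower RPKM in dark than in control. Summed over the 21, reads were 515 in control, 210 in dark and 665 in light, 2.65-fold lower in dark (2.25 to 3.13) and 1.23-fold higher in light (1.10 to 1.39). The best counted were isotig17058 with 144, 50 and 159 reads and isotig15688 with 118, 43 and 207. With an E-value of 8e-08 the name of isotig15688 is uncertain. A name shared by 21 isotigs need not mean 21 copies of that carrier.

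The glycine and proline carrier orthology of family 6 differed less, with 1409, 967 and 1567 reads over 10 isotigs, 1.58-fold lower in dark (1.45 to 1.71). Its longest isotig, isotig06046, had 803, 581 and 891 reads. Within family 7 and family 3, whose proteins pair as light and heavy subunits in mammals, values went apart. The light subunit SLC7A9 (isotig18557) had 47 reads in control, 14 in dark and 54 in light, 3.63-fold lower in dark (1.97 to 7.14). The heavy subunit SLC3A1, its partner in mammals, had 52, 97 and 57 reads over 3 isotigs, 1.72-fold higher in dark (1.22 to 2.46). SLC7A6, which exchanges cationic for neutral amino acids, had 228, 87 and 214 reads in isotig16381, 2.83-fold lower in dark (2.20 to 3.67). SLC38A10 (isotig13436) had 120, 58 and 117 reads, 2.24-fold lower in dark (1.62 to 3.12). Its log2 ratio in dark with size factors was -0.83, inside the 2-fold limit. The cystine and glutamate exchanger SLC7A11 (isotig15733) had 42, 36 and 48 reads.

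The oligopeptide carrier SLC15A1, which takes up small peptides with protons, had 1 isotig, isotig16131, with 87, 38 and 101 reads. It was 2.48-fold lower in dark (1.67 to 3.73), and in light its ratio to control was 1.11 (0.824 to 1.49). With size factors its log2 ratio in dark was -0.97, just inside the 2-fold limit. Among the 6 tested isotigs of sugars and of family 5, the median in dark was -0.53. Of them 1 was at least 2-fold lower in dark, against 24.03% of all isotigs. The sodium-coupled monocarboxylate carriers SLC5A8 and SLC5A12 had 449, 348 and 466 reads over 4 isotigs, 1.40-fold lower in dark (1.21 to 1.61). With size factors this was 1.12-fold and the interval spans 1 (0.971 to 1.29). The facilitated glucose carrier SLC2A1 was below the filter, with 0, 1 and 2 reads in its isotig.

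Monocarboxylate carriers of family 16 differed among themselves. These carriers pass lactate, creatine, carnitine or aromatic amino acids, depending on the member. With the dicarboxylate carriers of family 13 they form 17 tested isotigs, with a median of -0.81 in dark. Of these, 6 were at least 2-fold lower in dark and 1 higher, against 24.03% and 7.09% of all isotigs. In light 4 were higher and 0 lower, at a median of 0.50, against 7.77% and 7.22% of all isotigs. Of the 4, 2 belong to family 13. The others had few reads, with 0 in control and 4 in light for SLC16A4, and 11 and 24 for SLC16A8. The SLC16A4 name has an E-value of 2e-06 and is uncertain. SLC16A9 (isotig09165) had 251 reads in control, 84 in dark and 382 in light, 3.23-fold lower in dark (2.51 to 4.19) and 1.45-fold higher in light (1.24 to 1.71). SLC16A13 (isotig13192) had 238, 106 and 289 reads, 2.43-fold lower in dark (1.92 to 3.08). Its log2 ratio in dark with size factors was -0.95, inside the 2-fold limit. The aromatic amino acid carrier SLC16A10 had 203, 108 and 269 over 3 isotigs. By contrast the creatine carrier SLC16A12 had 75, 86 and 74 reads, and its interval in dark spans 1. Of its 5 isotigs, 3 had an E-value above 1e-10. One of them, isotig05347, was the sole carrier that stood at least 2-fold higher in dark with an interval that excludes 1. It had 6, 22 and 14 reads, a ratio of 3.39 (1.33 to 10.2), and its E-value of 4e-08 leaves the name uncertain. Family 13, which takes up citrate and succinate with sodium, had few reads, 18 in control, 5 in dark and 36 in light over 3 isotigs.

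Choline carriers of family 44 included the lowest dark log2 ratio (-2.28) among the 84 carriers with a mean of at least 20 reads. Isotig15436, named SLC44A2, SLC44A4 or SLC44A5, had 121 reads in control, 26 in dark and 150 in light. It was 5.03-fold lower in dark (3.27 to 8.01), and 5.96-fold higher in light than in dark (3.91 to 9.42). Isotig14266 of the same orthology had 32, 10 and 38 reads, and the 3 isotigs together were 4.47-fold lower in dark (3.11 to 6.59). The folate carrier orthology of family 46, with 5 of its 8 isotigs at an E-value above 1e-10, stood nearer to control. Its 8 isotigs had 391, 333 and 526 reads, 1.27-fold lower in dark (1.09 to 1.47) and 1.28-fold higher in light (1.12 to 1.47). Its log2 ratio in dark, -0.30, was 0.02 with size factors, where the interval of the ratio spans 1. Isotig15670 of family 46, with a weak hit (8e-06), had 27, 43 and 58 reads and was 2.05-fold higher in light (1.28 to 3.37).

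Nucleoside carriers of family 29 had 109, 46 and 105 reads over 3 isotigs, 2.56-fold lower in dark (1.80 to 3.70). Of the 3, 2 had an E-value above 1e-10, so their names are uncertain. Nucleotide sugar carriers of family 35 feed sugars to glycosylation in the Golgi. The GDP-fucose carrier SLC35C1 (isotig22430) had 74, 52 and 98 reads. Isotig14296, named SLC35C2, had 18, 14 and 46 reads and was 2.44-fold higher in light (1.39 to 4.47), one of 3 carriers at least 2-fold higher there with an interval that excludes 1.

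On the deposited scaling, metal carriers included members that were lower in dark and members that were level. Of 18 tested isotigs of metals and heme, 5 were at least 2-fold lower and 0 higher, against 24.03% and 7.09% of all isotigs. The share that was lower was thus near that of all isotigs. The median of the group was -0.48. The zinc carrier SLC39A7, which releases zinc from the secretory pathway, had isotig20684 at 130, 64 and 123 reads, 2.20-fold lower in dark (1.62 to 3.01). Its log2 ratio in dark with size factors was -0.81, inside the 2-fold limit. The zinc exporter SLC30A1 (isotig00336) had 26, 11 and 23, and the iron exporter ferroportin (SLC40A1, isotig26743) had 12, 3 and 15 and was 4.33-fold lower (1.17 to 23.9). The zinc importers SLC39A1, SLC39A2 and SLC39A3, one orthology, had 90, 95 and 87 reads over 3 isotigs, with a ratio in dark whose inverse was 1.02 (0.759 to 1.38). SLC30A9 had 77, 82 and 78 over 3 isotigs, though isotig13899 among them had 13, 17 and 4 reads and the lowest light log2 ratio of the carriers with at least 10 mean reads, at -1.47. With size factors the dark ratio was 1.22 for the SLC39A1 to SLC39A3 sum and 1.23 for SLC30A9, and both intervals span 1. The copper carrier SLC31A2 (isotig20342, E-value 3e-08) had 45, 42 and 60 reads. Sodium-dependent phosphate cotransporters of family 34 were level too, with 204, 208 and 204 reads over 4 isotigs. Relative to all isotigs after size factors, the phosphate group's median in dark was 0.30, so its direction depends on the scaling, and the median of the 6 tested zinc exporters of family 30 went from -0.05 to 0.27.

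Organic cation and carnitine carriers were spread widely. The 21 tested isotigs of organic ions and bile acids had a median of -0.34 in dark, which was -0.03 after size factors. Of them 7 were at least 2-fold lower in dark and 2 higher, against 24.03% and 7.09% of all isotigs. Within that group 20 isotigs carry the orthology of SLC22A4 and SLC22A5, which take up ergothioneine and carnitine in mammals. Summed, they had 488, 289 and 571 reads, 1.83-fold lower in dark (1.58 to 2.12). Isotig03724 had 133, 56 and 155 reads, and isotig03723, of the same length of 3126 bases and the same E-value of 5e-40, had 55, 29 and 67, so reads may be divided between forms of one transcript. Of 18 tested isotigs, 7 had a higher and 11 a lower RPKM in dark than in control, and those that were higher had at most 16 reads in a library. The bile acid carrier SLC10A2 (isotig21853) had 2, 2 and 9 reads.

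**Figure D4:**
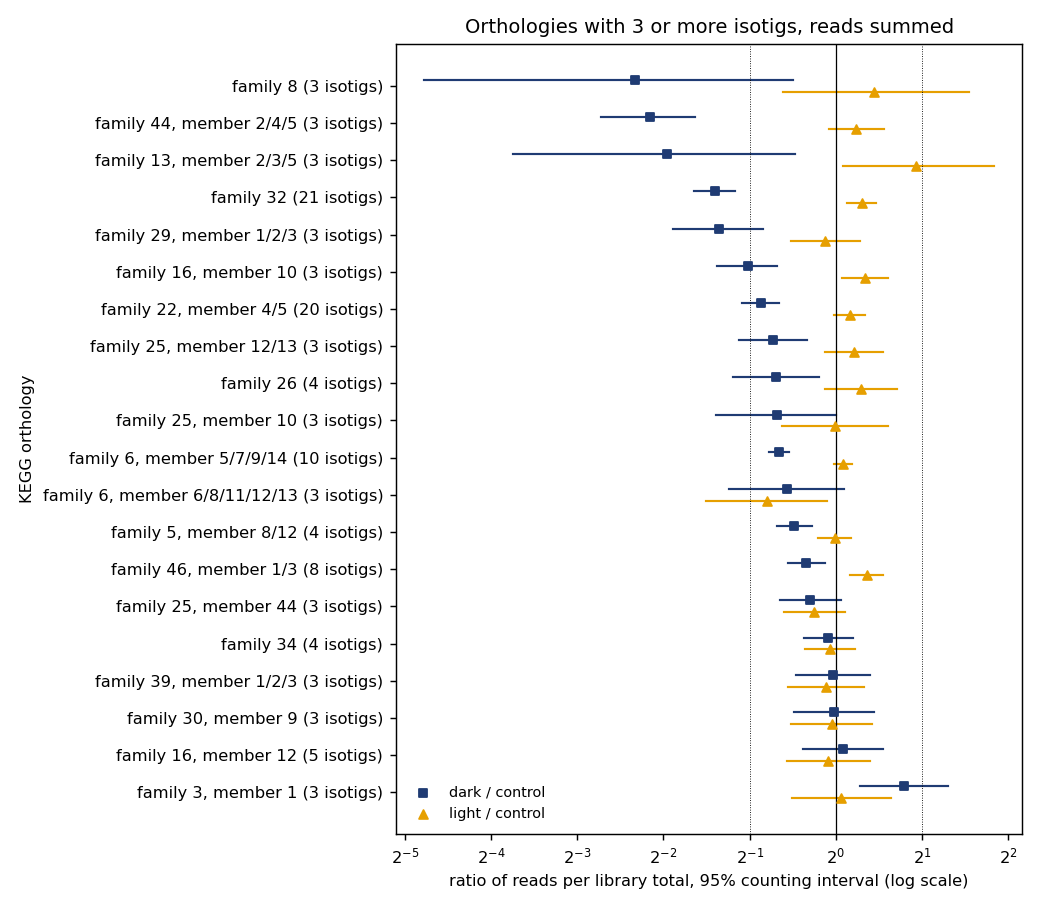
Ratio of reads per library total (horizontal log axis) for dark over control (squares) and light over control (triangles) in the 20 carrier orthologies with 3 or more isotigs, reads summed over isotigs. Lines are 95% counting intervals, which hold no variation between animals. Family 32 lies at a 2.65-fold lower sum in dark, families 34 and 39 lie near 1, and SLC3A1 of family 3 lies 1.72-fold above control.

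Most mitochondrial carriers other than the adenine nucleotide carrier had a lower RPKM in dark than in control. Of 22 tested isotigs of family 25, 9 were at least 2-fold lower in dark and 0 higher, against 24.03% and 7.09% of all isotigs. On the log2 scale, 18 of the 22 were below 0. Without the adenine nucleotide carrier, family 25 held 782 reads in control, 515 in dark and 876 in light. An uncoupling protein of the SLC25A8 and SLC25A9 orthology, whose members leak protons or exchange acids across the inner membrane, had 144, 56 and 201 reads in isotig14489. It was 2.78-fold lower in dark (2.03 to 3.86) and 1.33-fold higher in light (1.07 to 1.66). The aspartate and glutamate carriers SLC25A12 and SLC25A13, part of the malate-aspartate shuttle, had 136, 89 and 165 reads over 3 isotigs, 1.65-fold lower in dark (1.26 to 2.18). With size factors this was 1.33-fold (1.01 to 1.75). The pyrimidine nucleotide carriers SLC25A33 and SLC25A36 had 1 isotig, isotig21836, with 30, 8 and 33 reads, 4.06-fold lower in dark (1.82 to 10.2). Closer to control in dark were the carnitine and acylcarnitine carrier (isotig15864) with 94, 75 and 101 reads, and the folate carrier SLC25A32 (isotig17025) with 50, 57 and 39. TOM40, the outer membrane pore of mitochondrial protein import and no solute carrier, had 65, 29 and 56 reads.

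**Figure D5:**
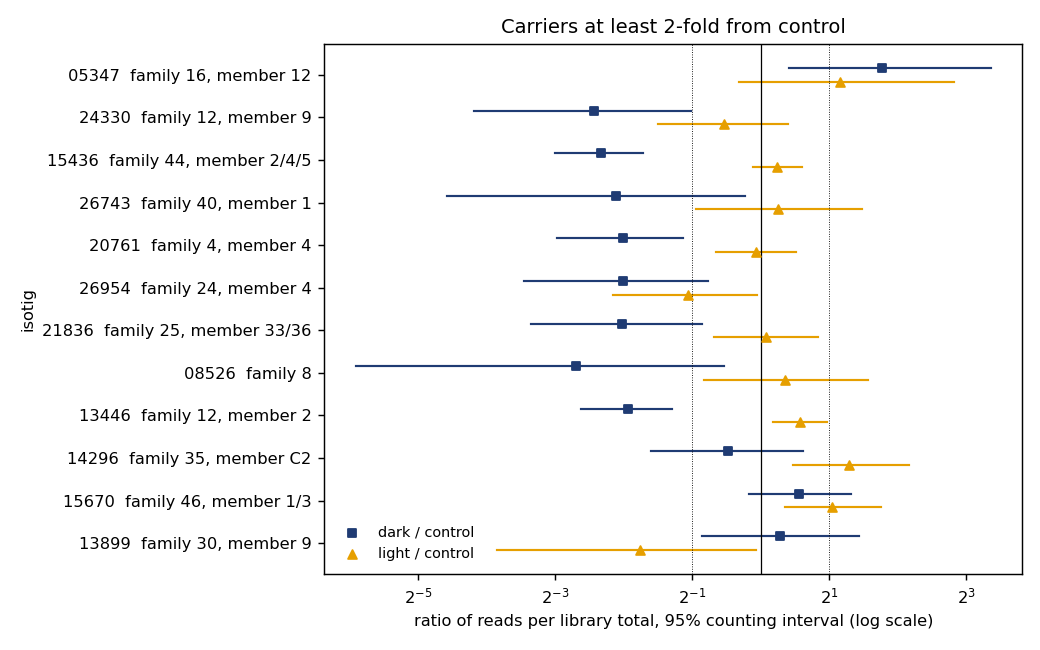
Ratio of reads per library total (horizontal log axis) for dark over control (squares) and light over control (triangles) in the 12 carriers named by the rule for the highest and lowest ratios against control, so they describe the extremes. Lines are 95% counting intervals. The choline carrier isotig15436 lies 5.03-fold below control in dark and near control in light, and isotig05347 lies 3.39-fold above control in dark.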

How the data were processed

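Total RNA was DNase-treated, enriched for poly(A) RNA, fragmented and copied from random hexamers, per the labels' protocols, which record no strand marking. CASAVA 1.5 was used, per the submitters' processing notes. No label or header used here names the assembler, the aligner or the read filters. Per the file headers, the authors deposited counts of uniquely assigned reads and RPKM for each isotig. The deposited counts summed to each header's library total, and RPKM recomputed from them matched. An isotig missing from a library's table was taken as 0 reads.

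Ratios were taken on log2(RPKM + 0.5), which understates the change of low isotigs, for isotigs at a mean of 1 RPKM or more, and called at 2-fold. Ratios of reads per library total have an exact conditional Clopper-Pearson 95% interval, called the counting interval, which covers counting error only. Wilson intervals are given for shares of reads. TMM factors came from edgeR 4.0.16 in R 4.3.3, used for scaling alone. Other steps ran in Python 3.11.15 with pandas 2.3.3, numpy 2.4.6, scipy 1.17.1 and matplotlib 3.10.9, and were tested on simulated data. No p-value was computed.

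The carriers, substrate groups and lists were chosen with earlier results of these data known. The rule for named isotigs took the 10 most abundant carriers outside family 25 and 6 of family 25. It added, among those with a mean of at least 10 reads, at least 2-fold apart and with an interval excluding 1, the 8 highest and lowest ratios in dark, 6 in light and 3 in light against dark, and each orthology with at least 3 isotigs. Other isotigs are described for their role and were picked after their values were seen. Family 48, heme carriers, was first put with amino acids by mistake and is counted with metals. The comparisons with isotigs that have a KEGG name and with all KEGG orthologies were added after seeing the data. Alternatives were size factors, TMM, pseudocounts of 0.1 and 1, library totals that leave out the 20 leading isotigs, other filters, E-value and length limits, and fold limits of 1.5 and 4.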

Additional observations from a re-analysis of the deposited data

How the results depend on the processing

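The carriers' lower median in dark and the larger number of lower than higher carriers there kept their direction under the alternatives listed for them. The median log2 ratio of -0.81 became -0.53 with size factors and -0.54 with TMM factors. The number of carriers at least 2-fold apart in dark against control was 74. It was 34 with a minimum of 20 mean reads, 38 when reads were summed over each orthology, 9 at a 4-fold limit and 48 where the counting interval had to exclude 1. In light against control the number was 25, and it was 39 with no filter, 2 with 20 mean reads, 9 over orthologies, 53 at a 1.5-fold limit, 3 at a 4-fold limit and 5 with the interval. In light against dark it was 79, and it was 38 with 20 mean reads, 38 over orthologies and 21 at a 4-fold limit. Fewer isotigs or sums enter with 20 mean reads and over orthologies, while the 4-fold limit and the interval only make the call stricter. Of the 20 orthology sums with at least 3 isotigs, 12 had a dark interval below 1, and 9 had with size factors, a check chosen after seeing the data; families 5, 26 and 46 were lost. Under the scalings a ratio past 2-fold could not change sign, since each moves all ratios of a comparison by a common factor well under 2-fold. No paired analysis was possible because each group has 1 library. For the same reason no library could be left out, and variation between animals, tissue composition and condition cannot be told apart. At these depths most single isotigs with under 20 reads have intervals too wide to place a 2-fold difference.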

Other observations

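Organic anion carriers of the SLCO family were outside the rule, since their names read solute carrier organic anion transporter family. They move bile salts, hormones and other organic anions in mammals, and 7 isotigs carried such a name, 5 of them tested. Isotig18658, named member 4A, had 40 reads in control, 23 in dark and 37 in light, and isotig25529 of the same name had 14, 25 and 31. Isotig23578, named member 3A, had 21, 9 and 29, so these isotigs stood on both sides of control in dark.

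A further 13 isotigs carry a solute carrier name in a later entry of their KEGG annotation only, under a first name of another kind. The one whose first name is also a carrier, the bile acid symporter isotig17967, had 35, 19 and 37 reads. Aquaporins, the water channels of cell membranes, had 7 isotigs. The aquaporin-4 isotig (isotig15882) had 231, 226 and 198 reads, and the aquaporin-3 isotig (isotig19870) had 22, 8 and 29.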
